A study of Mus musculus with 2 samples.

Results

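Of the 34675 autosomal regions in which MBD2-captured DNA was in excess in Control over Uhrf1 conditional knockout (cKO) chondrocytes, 2622 (7.56%, 95% Wilson interval 7.29 to 7.84) lay in noncoding genes and pseudogenes. A region belonged here when its summit, the position of highest signal, fell inside a RefSeq gene model that is not protein-coding, and neither inside nor within 1 kb of an end of any protein-coding gene, on chromosomes 1 to 19 of mm10. The whole list held 35861 regions on all chromosomes. The members filled 1247 kb and held 339528 Control tags (sequenced fragments placed on the genome). Of the other autosomal regions, 1611 lay within 1 kb of a protein-coding gene end, on either side of it. Another 18473 lay inside a protein-coding gene and farther from any such end, and 11969 in none of these.

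The cells were primary chondrocytes digested from knee cartilage of C57BL/6 mice at postnatal day 3, cultured until confluent; recombinant human BMP-2 was then given to both groups for 24 hours at 100 ng/ml. The groups were Control and Uhrf1 cKO, each represented by 1 library, so no comparison of genotypes has a replicate or a test. What drives the conditional knockout, and whether animals were pooled, are not stated in the labels. The cell type label could not be set against marker genes, since only genomic DNA was sequenced. After removing duplicates, the authors kept 9782276 of 21831989 Control tags (44.8%) and 15039206 of 19760028 cKO tags (76.1%). The list holds only regions with more Control signal.

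UHRF1 binds hemimethylated CpG sites behind the replication fork and brings DNMT1 there, so that the methylation pattern is copied to the new strand. MBD2 binds methylated CpG, and capture with it favours stretches with several such sites close together. Long noncoding RNAs (lncRNAs) are transcripts without a known protein product. Some act in the nucleus, some host small RNAs and most have no assigned role. Pseudogenes are disabled gene copies, many of them inserted by reverse transcription of messenger RNA, and many lie in methylated DNA.

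Sequence was at hand for the starts of lncRNA genes, where few of the members lie: 27 windows held a summit. RefSeq windows of 300 bp around a start (250 bp before it and 50 bp after it, GRCm38.p6, the assembly that mm10 names) were matched for 9291 of 12408 autosomal lncRNA models. The first 6 sequences below are windows that held the summit of a member at an FDR of at most 5%: the 4 of largest fold, then the 2 with the most CpG. The last is the window with the most CpG, which no member overlapped. They are written 5′ to 3′ on the strand of the gene, with each CpG in capitals, and were chosen after the values were seen.
Gm40237: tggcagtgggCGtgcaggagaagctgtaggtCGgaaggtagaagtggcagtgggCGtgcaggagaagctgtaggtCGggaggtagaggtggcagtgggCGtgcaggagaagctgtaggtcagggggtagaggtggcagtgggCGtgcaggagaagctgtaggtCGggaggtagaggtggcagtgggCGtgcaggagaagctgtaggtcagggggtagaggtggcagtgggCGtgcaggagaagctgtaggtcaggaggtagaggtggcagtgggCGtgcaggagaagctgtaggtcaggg
LOC100125594: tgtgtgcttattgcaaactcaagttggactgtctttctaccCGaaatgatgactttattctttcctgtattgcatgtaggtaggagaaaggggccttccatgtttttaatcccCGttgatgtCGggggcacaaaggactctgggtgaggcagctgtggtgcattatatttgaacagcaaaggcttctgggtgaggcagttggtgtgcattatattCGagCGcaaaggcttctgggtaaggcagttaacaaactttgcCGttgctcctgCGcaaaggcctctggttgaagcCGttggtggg
Gm32110: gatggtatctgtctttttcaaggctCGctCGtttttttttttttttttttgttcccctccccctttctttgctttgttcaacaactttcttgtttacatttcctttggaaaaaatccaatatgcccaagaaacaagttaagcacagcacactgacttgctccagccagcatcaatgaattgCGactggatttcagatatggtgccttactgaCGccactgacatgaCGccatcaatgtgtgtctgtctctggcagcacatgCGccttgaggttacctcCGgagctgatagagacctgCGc
Gm35837: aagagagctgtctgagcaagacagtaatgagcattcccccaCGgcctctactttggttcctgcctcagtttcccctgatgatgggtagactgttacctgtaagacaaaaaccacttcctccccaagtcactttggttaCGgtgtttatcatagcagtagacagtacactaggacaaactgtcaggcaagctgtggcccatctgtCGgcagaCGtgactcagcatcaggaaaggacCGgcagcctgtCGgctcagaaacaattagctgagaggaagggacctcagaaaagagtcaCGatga
Gm46420: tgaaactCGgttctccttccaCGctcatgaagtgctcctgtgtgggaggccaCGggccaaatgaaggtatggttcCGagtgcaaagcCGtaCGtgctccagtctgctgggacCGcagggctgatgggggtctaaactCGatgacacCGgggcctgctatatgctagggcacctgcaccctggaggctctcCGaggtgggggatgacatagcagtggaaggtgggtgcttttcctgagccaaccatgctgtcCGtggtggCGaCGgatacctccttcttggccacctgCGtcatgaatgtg
Gm46293: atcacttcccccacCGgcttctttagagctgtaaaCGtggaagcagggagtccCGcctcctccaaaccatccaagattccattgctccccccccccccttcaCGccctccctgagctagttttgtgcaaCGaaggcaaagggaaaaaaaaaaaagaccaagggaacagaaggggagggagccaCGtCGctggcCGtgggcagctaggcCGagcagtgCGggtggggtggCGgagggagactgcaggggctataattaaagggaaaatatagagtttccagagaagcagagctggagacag
Gm34507: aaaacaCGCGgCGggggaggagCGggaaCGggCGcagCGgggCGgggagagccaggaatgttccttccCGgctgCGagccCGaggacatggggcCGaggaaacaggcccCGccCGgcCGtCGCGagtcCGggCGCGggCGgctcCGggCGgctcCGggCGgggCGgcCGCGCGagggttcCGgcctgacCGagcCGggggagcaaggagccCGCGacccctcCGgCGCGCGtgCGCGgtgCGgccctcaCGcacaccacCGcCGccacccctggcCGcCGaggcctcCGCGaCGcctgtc

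Each of these genes is an lncRNA model with no assigned function. Gm40237 (window at chr4:118547156-118547455, plus strand) had 10 CpG, and its region held 48 Control tags at a 31.96-fold excess (FDR 0.71%) in the authors' deposited table. A unit of 30 bases, gcagtgggCGtgcaggagaagctgtaggtc, occurred 7 times in that window, each copy 44 bp after the one before, so this start is a tandem repeat. No exact 30-base unit occurred more than once in any of the other 6 windows. Shorter or inexact repeats, such as those visible in the LOC100125594 window, were not counted. LOC100125594 (chr2:151432400-151432699, minus strand) had 8 CpG and 189 tags at 23.93-fold. Gm32110 (chr7:38927515-38927814, plus strand) had 8 CpG and 352 tags at 20.17-fold. Gm35837 (chr10:77225337-77225636, plus strand) had 7 CpG and 103 tags at 19.85-fold. These 3 windows are of moderate CpG content. Gm46420 (chr13:60126367-60126666, minus strand) had 14 CpG and 296 tags at 15.43-fold, and Gm46293 (chr11:94934567-94934866, minus strand) had 11 CpG and 168 tags at 9.42-fold. The CpG island at the start of Gm34507 (chr17:4908072-4908371, plus strand), with 49 CpG and 79.3% G and C, was overlapped by no member region. Listed regions outside the members were not looked for there.

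Over 7064 distinct lncRNA start windows of 5785 genes that lay away from protein-coding genes, 66 were overlapped by a member region. Their median CpG count was 7 (quartiles 5 and 8), against 3 (2 and 6) in the 6998 windows not overlapped. The share overlapped was greatest at 7 to 10 CpG, where 33 of 902 windows (3.66%, 2.62 to 5.09) were covered. It was 0.876% (17 of 1940) at 4 to 6 CpG, 1.30% (5 of 384) at 11 to 20 CpG, and 0 of 104 (upper Wilson bound 3.56%) at 21 to 49 CpG. None of 588 windows without CpG was covered (upper bound 0.649%). The interval at 7 to 10 CpG overlapped that at 11 to 20 CpG (0.557 to 3.01) and that above 20 CpG, so the order of these classes is not settled at this depth. Of each window, 250 bp lie before the start, where a summit makes a member only if a noncoding model holds it. Other listed regions were not counted, so these shares are limited by the rule. The list shows neither the methylation of a window nor its capture in cKO cells.

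**Figure D1:**
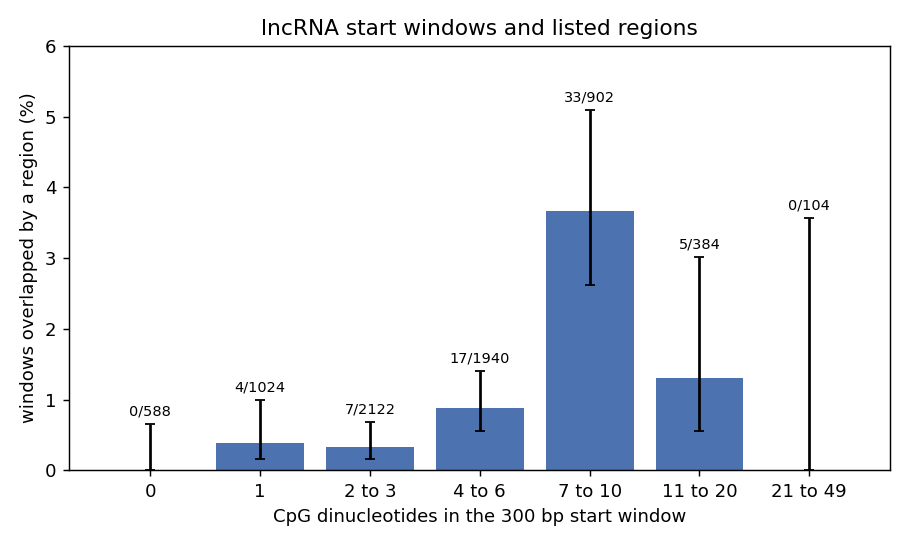
Share of lncRNA start windows of 300 bp overlapped by a member region (vertical axis, %) by the number of CpG in the window (horizontal axis). Bars are shares, error bars are 95% Wilson intervals and the numbers give overlapped over all windows; the highest bar is that of 7 to 10 CpG, at 3.66%, and no window without CpG or with over 20 CpG was overlapped.

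Regions were denser in noncoding genes than in intergenic DNA and less dense than in protein-coding genes. The members came to 13.0 per Mb of noncoding gene territory (201.5 Mb, Poisson interval 12.5 to 13.5). Intergenic DNA held 9.79 per Mb (9.61 to 9.97). The inside of protein-coding genes, over 1 kb from an end, held 19.6 (19.3 to 19.9). The 1 kb on either side of their ends held 21.6 (20.5 to 22.6). These densities count every base of a class, and bases where no tag can be placed were not taken out. Such bases may be shared unevenly between the classes, as may CpG sites. Their part in these densities was not tested. Between autosomes the density ran from 9.47 per Mb on chromosome 14 to 21 on chromosome 17. The median fold was alike in these classes, from 12.01 inside protein-coding genes to 12.21 at their ends. Other measures differed more. The median of Control tags ran from 98 in intergenic DNA to 113 at coding gene ends. An FDR of at most 5% was listed for 54.9% (54.0 to 55.8) and 61.3% (58.9 to 63.6) of these. Folds of 20 or more made up 23.3% of intergenic regions and 19.4% of those inside coding genes. The members' median fold in the authors' deposited table was 12.19 (quartiles 8.37 and 18.44, range 2.37 to 92.29), against 12.09 over all autosomal regions. Their median was 101 Control tags (57 and 178, range 11 to 766), against 104 over all. Folds of 10 or more were listed for 1668 members (63.6%), beside 64.2% of all autosomal regions. An FDR of at most 5%, the authors' estimate from swapping the libraries, was listed for 1488 (56.8%), beside 57.3% of all. An FDR of 100% was listed for 435 (16.6%, against 16.1% of all). The intervals of all these medians and shares hold the value of the whole list, so in fold, tags and FDR the members were like the list as a whole within counting error.

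Distances to coding genes varied widely. The summit lay over 100 kb from any coding gene for 632 members (24.1%) and within 10 kb for 554 (21.1%). At the edge of the rule, the 35 members with a summit 1001 to 1500 bp from a coding gene had a median fold of 9.94 and 115 tags, and the 40 regions at 501 to 1000 bp, left out by the rule, had 10.96 and 120.

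By kind of gene, lncRNAs held most of the regions and pseudogenes held more per Mb. The lncRNA models took 2098 members (80.0%) on 83.6% of the territory, 12.5 per Mb (11.9 to 13.0). Pseudogenes took 440 (16.8%) on 11.4% of it, 19.1 per Mb (17.3 to 20.9), which was 1.53 times the lncRNA density (1.38 to 1.70). The median fold was 14 in pseudogenes (interval 12.73 to 14.98) and 11.91 in lncRNAs (11.51 to 12.20). Folds of 20 or more were listed for 133 pseudogene regions (30.2%, 26.1 to 34.7) and for 411 lncRNA regions (19.6%, 17.9 to 21.3). The gap was seen in 3 of 4 ranges of tag count. The median fold was 23.75 in pseudogenes and 19.15 in lncRNAs with 11 to 60 tags, 10.28 and 8.27 with 61 to 104, and 12.26 and 10.85 with 105 to 177. With 178 tags or more it was 12.02 and 12.85. Pseudogenes resemble their parent genes, and how the authors placed reads that match several copies is unknown here. Its part in these values was not tested.

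**Figure D2:**
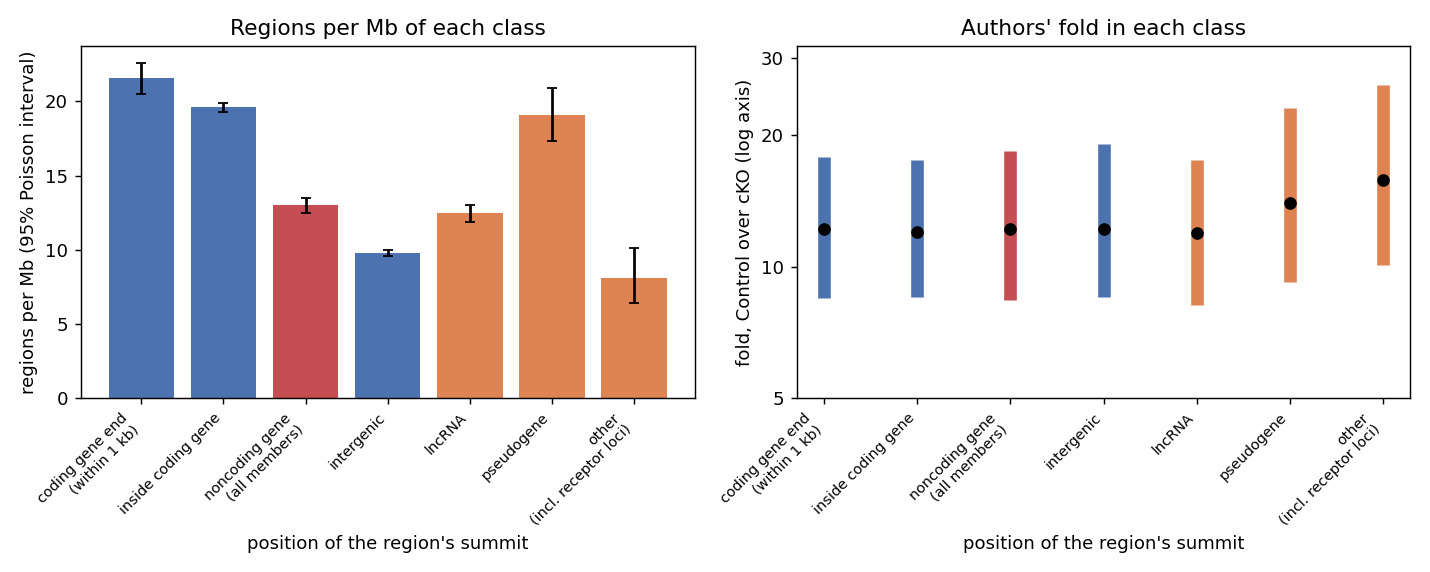
Left, regions per Mb of each position class and, within the members, of each kind of gene model (bars, with 95% Poisson intervals). Right, the authors' fold in each (points are medians, bars span the quartiles, log axis); pseudogenes stand at 19.1 per Mb and a median fold of 14, lncRNAs at 12.5 per Mb and 11.91. The 4 regions of small RNA genes are not drawn.

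Few noncoding models held a region. Of 26377 autosomal models, 19588 had sequence away from coding genes, and 2096 of these (10.7%) held a member: 1660 held 1, 313 held 2 and 123 held 3 or more. The share was 17.4% of lncRNA models (1636 of 9414), 5.74% of pseudogenes (428 of 7455) and 0.377% of small RNA genes (8 of 2120). All 8 small RNA genes had the snRNA biotype, which covers RNAs of the spliceosome. None of 320 microRNA, 825 small nucleolar RNA and 318 transfer RNA genes held a summit. Their median lengths are 0.0835, 0.130 and 0.0720 kb, so a lack of regions cannot be read from these counts. For the transfer RNA genes the Poisson interval ran from 0 to 156 per Mb, which holds the 13.0 of all members. The snRNA models span about 0.107 kb, less than a region, so the regions reach beyond them. Gm25801 (chr12:100768874-100769133) had 30 tags at 46.14-fold with an FDR of 3.27%. Gm24540 (chr14:73767478-73768084) had 299 tags at 12.39-fold with an FDR of 0%. Of these 2, the first rested on few tags and the second was near the members' median fold.

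Longer models held a region more often and held fewer regions per Mb. Models with a member had a median length of 16.9 kb, those without 1.81 kb. The lncRNA density fell from 22.3 per Mb (18.9 to 26.1) in models of 1 to 5 kb to 18.1 at 5 to 20 kb, 12.1 at 20 to 100 kb and 6.71 (5.97 to 7.52) at 100 kb or more. Pseudogene density fell from 48.9 (40.4 to 58.7) under 1 kb and 35.8 (30.7 to 41.4) at 1 to 5 kb to 14.9, 10.2 and 5.41 in the same further classes. Under 1 kb the lncRNA density was 57.4, with an interval (26.2 to 109, from 9 regions) that held the pseudogene value. From 5 kb on, the intervals of lncRNAs and pseudogenes overlapped in every length class. Between 1 and 5 kb they did not, with the pseudogenes higher. Under 5 kb as a whole, pseudogenes held 39.9 per Mb (35.5 to 44.8) and lncRNAs 23.1 (19.7 to 26.8), and from 5 kb on 11 and 12.1. In these short pseudogenes 287 of 6664 models held a region, and 15 of the 266 regions classed there spanned the whole model. An FDR of at most 5% was listed for 65.8% of the 266, beside 57.3% of all autosomal regions. It was 55.5% in lncRNAs under 5 kb and 51.1% in longer pseudogenes.

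**Figure D3:**
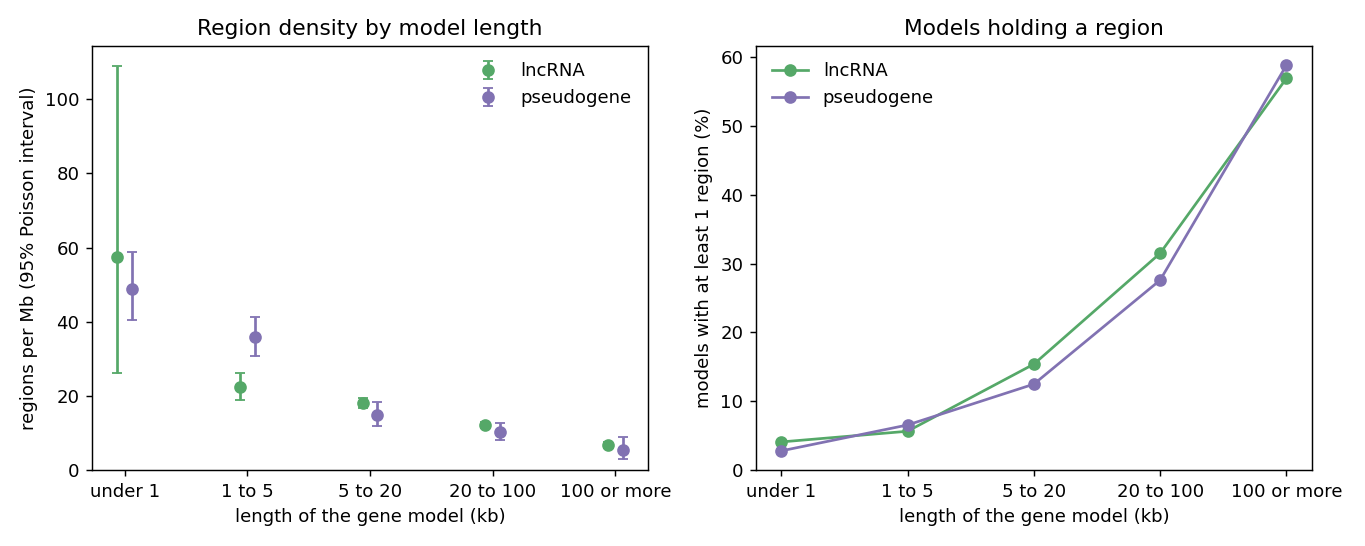
Left, regions per Mb (points, 95% Poisson intervals) by length of the gene model for lncRNAs and pseudogenes; both fall with length, and pseudogenes exceed lncRNAs at 1 to 5 kb (35.8 against 22.3 per Mb). Right, the share of models with at least 1 region, which rises with length to 56.9% of lncRNAs and 58.8% of pseudogenes of 100 kb or more.

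Within lncRNA genes the regions were spread over the whole model. Over 1535 members in a single lncRNA model of known strand, each of 10 equal parts of the model from start to end held between 8.21% and 11.5% of them. These shares were not set against the sequence away from coding genes in each part, so a preferred place cannot be judged from them. Summits within 1 kb of either end made up 345 of the lncRNA members (16.4%) and 278 of the pseudogene members (63.2%). In a model under 2 kb every base is that close to an end, and pseudogenes with a member had a median length of 1.87 kb. The lncRNAs with a curated RefSeq transcript held 664 regions at 11.7 per Mb (10.8 to 12.6), and predicted models held 1434 at 12.8 (12.2 to 13.5). These intervals overlap.

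The lncRNA models with the most regions were large and without an assigned role. Gm31724 (chr11:114517389-114611686) held 8 regions over 94.3 kb, the nearest of them 61.5 kb from a coding gene, Rpl38. Their tags were 123, 344, 47, 232, 167, 297, 13 and 137 from left to right, and their folds 16.00, 6.29, 8.20, 15.47, 11.52, 12.67, 21.69 and 14.06. The 2 with fewest tags, 47 and 13, had an FDR of 100%, and the other 6 had at most 0.05%. Gm31615 (chr17:88237101-88388658) held 7 regions in 152 kb, with folds from 6.72 to 39.55, of which 3 had an FDR of 0% and the others over 50%. Gm29677 (chr18:68398086-68565629) held 6, with folds from 7.80 to 24.14, and all had an FDR of at most 0.63%.

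The largest folds came from regions of few to moderate tags. The largest among members was 92.29 in the pseudogene Gm7631 (chr5:86985846-86986247, 70 tags), followed by 82.40 in the pseudogene Gm31104 (chr13:112138538-112139071, 104 tags). Among lncRNAs, Gm36447 reached 80.26-fold with 109 tags (chr5:150829203-150829693), while its 3 other regions, with 182 to 334 tags, had 8.24 to 15.62. The next among lncRNAs were 4930548G05Rik at 78.87-fold with 114 tags and BC046251 at 72.51-fold with 53 tags. All 5 had an FDR of at most 0.02%. The pseudogene Vmn2r-ps15, a disabled vomeronasal (pheromone) receptor, held 2 regions of 95 and 98 tags at 75.07-fold and 39.44-fold. At the other end of the scale, the most tags were 766 in Gm40504 (chr8:71816339-71817220) at 6.75-fold and 710 in Gm33838 (chr9:35305178-35305628) at 2.37-fold, the smallest fold of all members. Amd-ps4, a pseudogene of S-adenosylmethionine decarboxylase, had 539 tags at 5.59-fold. Gm5258, a pseudogene, had 617 tags at 8.98-fold, and Gm38534 had 558 at 15.40-fold, above the members' median. These models were chosen for extreme folds or tags. Over all members the median fold was 19.85 with 11 to 60 tags, 8.52 with 61 to 104, 11.05 with 105 to 177 and 12.74 with 178 or more. Some folds recurred exactly among members of low count: 28 regions were listed at 29.66-fold with 11 to 30 tags (19 at an FDR of 100%), and 17 at 23.07-fold with 11 to 15 tags, all at an FDR of 100%. The cKO counts behind these folds were not analysed here.

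Among models with at least 2 regions, the most regions per kb of model were in small pseudogenes. Gm12441 (0.488 kb) held 2 regions of 21 and 11 tags, neither at an FDR of at most 5%. Eif4a-ps4, a copy of a translation initiation factor gene, held 2 regions in 1.78 kb, of 380 tags at 6.08-fold and 94 tags at 21.69-fold, both at an FDR of at most 0.02%. Rab11b-ps2, a copy of a vesicle traffic GTPase gene, held 2 in 1.73 kb, of 54 tags at 29.50-fold (FDR 0.16%) and of 14 tags at 18.93-fold (FDR 100%). Low-count regions thus enter this ranking beside strong ones.

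Pseudogenes of known descent differed in how often they held a region. Of 210 models with a ribosomal protein pseudogene symbol, 15 (7.14%) held a region, beside 10.7% of all noncoding models, 5.74% of all pseudogenes and 2.81% of pseudogenes under 1 kb. With a median length of 0.552 kb this came to 79.8 regions per Mb (44.7 to 132), an interval that overlaps that of pseudogenes under 1 kb (48.9, 40.4 to 58.7). Their folds ran from 6.11 to 59.33 and 8 of 15 had an FDR of at most 5%, beside 57.3% of all autosomal regions. The region of Rps12-ps2 (chr14:61466898-61467370), with 90 tags at 32.79-fold and an FDR of 0%, covered most of the 0.453 kb copy. That of Rps6-ps4, with 23 tags at 59.33-fold and an FDR of 10.23%, also lay in the lncRNA 2600014E21Rik. Of 556 olfactory and vomeronasal receptor pseudogenes, 5 (0.899%) held 7 regions, 3.38 per Mb (1.36 to 6.95), beside 19.1 per Mb (17.3 to 20.9) for all pseudogene members. These were vomeronasal models, among them Vmn2r-ps17 with 215 tags at 10.53-fold (FDR 0%). Zfp862-ps, the 1 of 8 zinc finger pseudogenes with a region, had 535 tags at 9.38-fold. All these groups were chosen by symbol, and no test was made of them.

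The antigen receptor loci held members with a higher median fold than the members as a whole. The gene table gives each locus as a long model of biotype other, although the loci encode the chains of antibodies and T cell receptors, which are assembled by recombination of gene segments in lymphocytes. They held 59 members with a median fold of 17.84 (interval 13.57 to 23.37), against 12.11 in the 2563 members outside them. The 59 had a median of 86 Control tags, against 101 in the members outside. An FDR of at most 5% was listed for 41 of them (69.5%), beside 57.3% of all autosomal regions. Some of the 59 also lie in an lncRNA or pseudogene model, such as Gm8828 in Igk, and are classed there. The class of other models had a median fold of 15.79 with these loci and 12.28 without them. Igk, the kappa light chain locus (chr6:67555636-70726754), held 29 regions, 9.15 per Mb (6.12 to 13.1), at folds from 6.48 to 52.88 with a median of 20.45. Igh, the heavy chain locus (chr12:113258768-116009954), held 11, 4.01 per Mb (2.0 to 7.18), with a median of 12.29. The intervals of Igk and Igh overlap. Tcra, the T cell receptor alpha locus (chr14:52427967-54224198), held 13, 7.34 per Mb (3.91 to 12.6), with a median of 18.22. Its region at chr14:53668894-53669312 had 78 tags at 75.52-fold. Tcrb held 4, with a median of 10.19, Igl held 2, with a median of 24.24, and Tcrg none. The 1 region of Tcra that lay also in Tcrd, the delta locus inside it, had a fold of 5.48. In no locus was a summit inside a V, D, J or C segment, and 1 region (100 tags, 5.48-fold, FDR 96.15%) touched one. The segments make up between 1.21% of Igl and 10.6% of Tcrg. Each of the 7 loci held fewer regions per Mb than the 13.0 of all members, and the intervals of Igh and Tcra ended below that value. The intervals of Igk (to 13.1), Tcrb (to 17.9), Igl (to 30.9), Tcrd (to 26.1) and Tcrg (0 to 20.7) reached it.

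**Figure D4:**
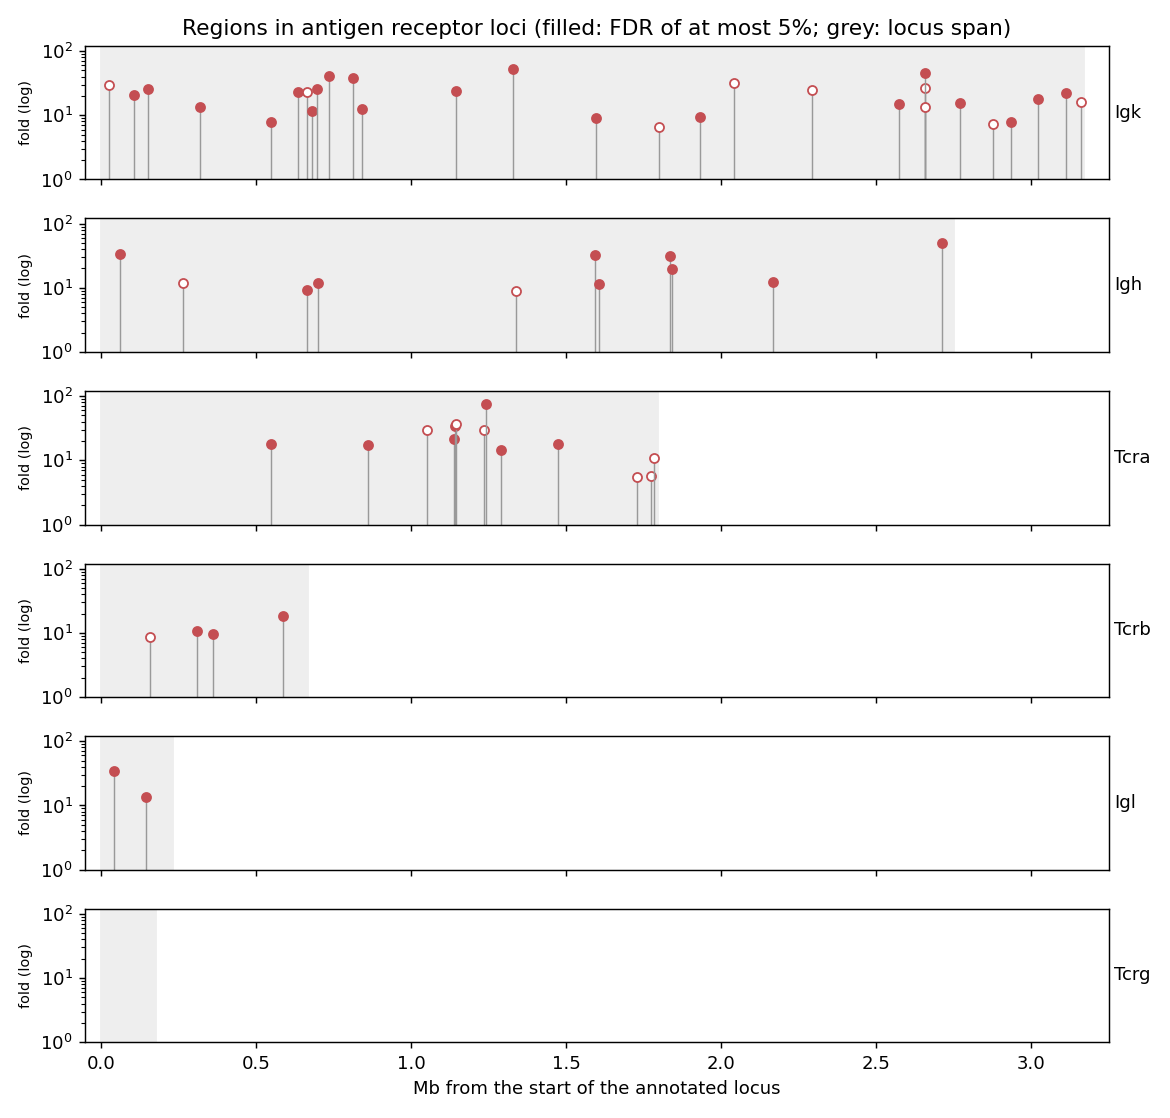
Authors' fold of each region (log axis) by position in 6 antigen receptor loci (Mb from the annotated start; grey marks the span of the locus). Filled points have an FDR of at most 5%; the 29 regions of Igk are spread over the whole locus and none lies in Tcrg. Tcrd lies inside Tcra and is not drawn by itself.

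Well-studied lncRNAs were listed by role. Of 24 nuclear and chromatin-linked lncRNAs, 12 held 24 regions, 12 of them at an FDR of at most 5%, with a median fold of 10.77. That count stands beside 10.7% of all noncoding models and 31.5% of lncRNAs of 20 to 100 kb, since these genes are long (median 21.2 kb). Neat1, the RNA scaffold of paraspeckles, held 1 region (chr19:5829703-5830445) with 332 tags at 17.79-fold. Sox2ot, whose model overlaps Sox2, held 1 with 310 tags at 14.98-fold (chr3:34597168-34597841). Both had an FDR of 0%. Pvt1, the neighbour of the proto-oncogene Myc, held 5 with folds from 7.46 to 13.25, of which 3 had an FDR of at most 5%. Lncpint, a p53-induced RNA, held 5 of 84 to 217 tags at 7.80-fold to 13.67-fold, also with 3 at that FDR. Trp53cor1, another p53 target beside Cdkn1a, held 3, and its region at chr17:29071586-29071896 had 42 tags at 28.85-fold (FDR 0.79%). Dleu2, a microRNA host, held 3, of which 1 (150 tags, 15.68-fold) had an FDR of 0%. Fendrr, a mesoderm lncRNA beside Foxf1, held 1 with 177 tags at 11.56-fold (FDR 0%), and Lncenc1 held 1 with 88 tags at 14.45-fold (FDR 2.19%). The single regions of Hand2os1, Pantr1, Morrbid and Carmn had an FDR above 5%. The Carmn region rested on 12 tags. Malat1, Miat, Tug1, Rmst and 8 further listed genes held none.

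Of 8 imprinted noncoding genes with sequence away from coding genes, 4 held 7 regions, 3 of them at an FDR of at most 5%, beside 57.3% of all autosomal regions. A member was held by 10.7% of all noncoding models and 31.5% of lncRNAs of 20 to 100 kb, and the median length of this list is 44.3 kb. Imprinted genes are expressed from 1 parental copy, and methylation of a control region differs between the parental copies. Snhg14, the long transcript across the Snrpn and Ube3a domain that hosts small nucleolar RNAs, held 3 regions. The region at chr7:59960661-59961304 had 175 tags at 36.87-fold with an FDR of 0%, and the others, with 127 and 24 tags, had 9.01-fold and 14-fold at an FDR of 38.18% and 100%. Meg3, a maternally expressed RNA of the Dlk1 domain, held 1 with 153 tags at 8.87-fold (chr12:109545796-109546455, FDR 0.74%). Rian, in the same domain, held 2, with 79 tags at 7.14-fold (FDR 25.39%) and 131 tags at 7.50-fold (FDR 1.69%). Gnasas1, the antisense RNA of Gnas also called Nespas, held 1 with 52 tags at 6.73-fold and an FDR of 100%. H19, Airn, Mirg and Ipw held none. The Snhg14 region thus stood apart in fold from the other 6, which were between 6.73 and 14.

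In the Hox and Dlx clusters, which pattern the limb skeleton, 2 of 11 noncoding genes (18.2%) held a region. The share was 17.4% of all lncRNA models and 15.4% of those of 5 to 20 kb, and the median length of this list is 7.25 kb. Haglr, at the Hoxd cluster, had 50 tags at 19.48-fold (chr2:74755808-74756196, FDR 3.90%). Dlx6os1, the antisense RNA of Dlx6, had 163 tags at 6.77-fold (chr6:6859348-6859888, FDR 3.92%). Hotair and Hottip held none, and like most of this list they have less than 5 kb away from coding genes. Haglr has 12.7 kb and Dlx6os1 44.4 kb, so this list cannot be judged by its share alone.

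Of 15 small nucleolar RNA host genes, 2 (13.3%) held a region, beside 17.4% of lncRNA models and 10.7% of all noncoding models. The median length of this list is 3.07 kb, and 5.66% of lncRNAs of 1 to 5 kb held a region. Snhg10 had 112 tags at 16.75-fold (chr12:105030836-105031309, FDR 0.02%), and the 2 regions of Snhg11 had an FDR above 5%. Of 11 genes listed as microRNA hosts, Mir99ahg held 1 region with 49 tags at 26.40-fold (FDR 2.95%) and Mirt1 held 3, none at an FDR of at most 5%. These 2 genes are 18.2% of that list, whose median length is 10.2 kb, beside 15.4% of lncRNAs of 5 to 20 kb. Mirt1 is a myocardial infarction associated transcript and not a known microRNA host. Of 122 transcripts with an opposite strand or antisense symbol, 23 (18.9%) held 42 regions at 18.7 per Mb (13.5 to 25.3), close to the 17.4% of lncRNA models and the 18.1 per Mb of lncRNAs of 5 to 20 kb. The median length of this group is 11.1 kb. Chn1os3 had 110 tags at 33.84-fold with an FDR of 0%. Igf1os, opposite to the growth factor gene Igf1, had 20 tags at 37.06-fold with an FDR of 51.48%, and Ifngas1, beside the interferon gamma gene, had 24 tags at 42.85-fold with an FDR of 27.37%.

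**Figure D5:**
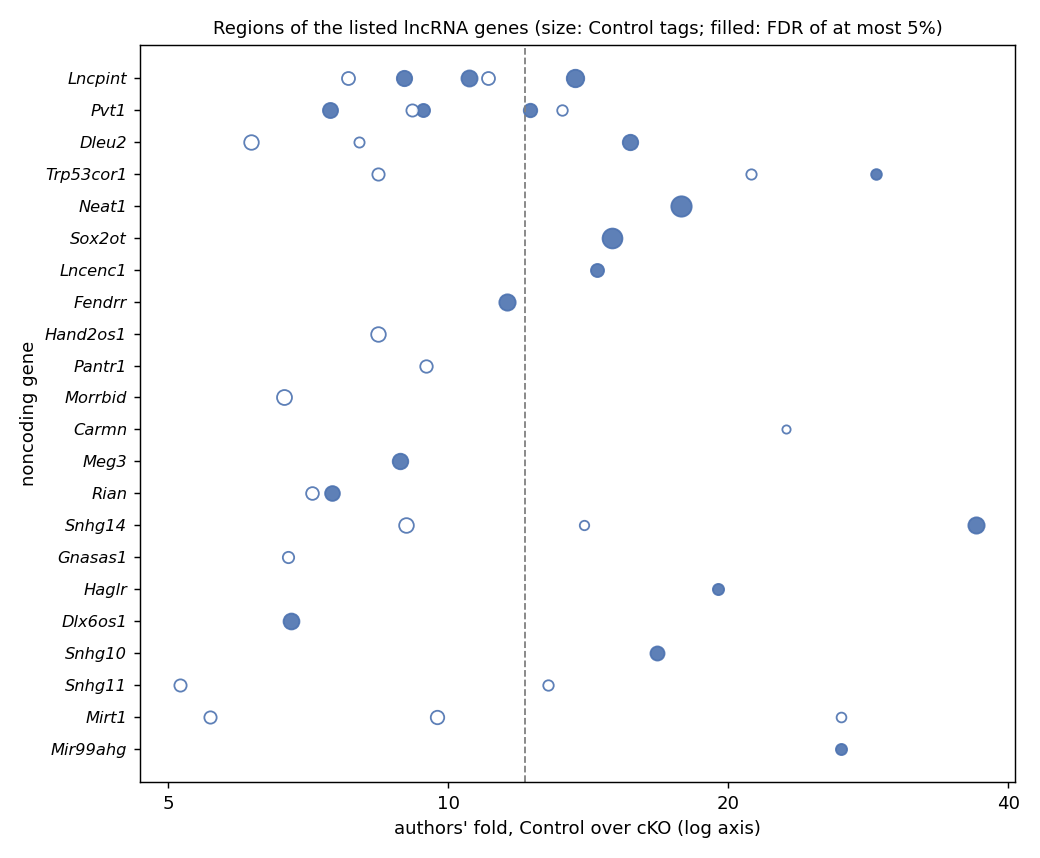
Authors' fold (horizontal, log axis) of each region in the listed noncoding genes that held one (rows). Point size grows with the Control tags, and filled points have an FDR of at most 5%. The dashed line is the median of all autosomal regions, 12.09. Snhg14 holds the largest fold shown, 36.87.

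Of 919 autosomal microRNA hairpins in the RefSeq table, 5 lay in or within 1 kb of a member region. The 919 include hairpins in coding genes, where no member can lie, so this count is no measure of how often members are near microRNAs. Mir3069 (chr12:105031077-105031141, minus strand) lay wholly inside the Snhg10 region described above. Mir370 (chr12:109618258-109618336, plus strand) lay 300 bp from the Rian region of 131 tags. Their mature sequences are shown because they are the hairpins next to members of the lists at an FDR of at most 5%, with the seed (bases 2 to 8) in capitals.
mmu-miR-3069-5p: uUGGCAGUcaagauauuguuuagc
mmu-miR-3069-3p: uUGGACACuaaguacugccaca
mmu-miR-370-5p: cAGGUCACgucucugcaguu
mmu-miR-370-3p: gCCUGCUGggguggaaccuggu

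The 4 seeds differ. The other hairpins were Mir682, which overlapped a region of Gm4149 (41 tags, 7.90-fold, FDR 100%), Mir6368 at 501 bp from a region of 2610307P16Rik (104 tags, 6.65-fold, FDR 9.23%), and Mir5124b at 509 bp from a region of Gm3839 (55 tags, 32.57-fold, FDR 0.32%). No microRNA expression was measured.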

How the data were processed

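The deposited table lists regions called with MACS 1.4.2, per the file headers, the cKO library serving as background to the Control library; the p limit was 1e-10 and 1 tag was kept per position. The build is mm10, per the submitters' processing notes, and the aligner is not given in the sources used here. The tag count is the deposited whole number of Control tags in a region. The fold is a ratio, and the FDR a percent, as deposited by the authors; the deposited score is the log10 of the p, scaled and with its sign changed. These values served only to describe, rank and filter regions.

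Summits (start + summit - 1) were placed on the RefSeq gene table of GRCm38.p6, which gives no exons or strand; strand and sequence came from the RefSeq start window and microRNA tables. A summit in several models was given 1 class in the order lncRNA, pseudogene, small RNA, other. Territory is the union of the models outside coding genes and 1 kb around them. Intervals (95%: Wilson for shares, exact Poisson for counts and densities, order statistics for medians) cover counting error only. The placing was tested on simulated data. The members, 5 gene lists and 12 symbol groups were chosen with earlier results of these data known. Named were the models with most regions, tags, regions per kb, or largest and smallest folds, list members with a region, and the leading models of each symbol group; further examples were chosen after their values were seen. Alternatives were stricter p and FDR limits, other overlap rules, and other windows. Exons, repeats and the CpG content of regions were not analysed here. Software: SciPy 1.17.1, pandas 2.3.3, NumPy 2.4.6 and Matplotlib 3.10.9 under Python 3.11.15.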

Additional observations from a re-analysis of the deposited data

How the results depend on the processing

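Of 117 values recomputed under alternative settings, 85 stayed close and 32 moved further; close means within 1.5 times for a count of regions or genes, and within the counting interval for a median, share or density. No paired analysis was possible because each genotype had 1 library. A p limit of 1e-15 gave a median fold of 12.63, 122 tags, a length of 504 bp, 69.3% at an FDR of at most 5% and 10.7 regions per Mb. A limit of 1e-20 gave 13.09, 140 tags, 519 bp, 80.8% and 9.14 per Mb, with 1 small nucleolar RNA host gene and an lncRNA median fold of 12.84. Limiting to an FDR of at most 5% left 1488 regions, with a median fold of 13.54, 163 tags, 540 bp and 7.39 per Mb, an lncRNA median fold of 13.42, 1 small nucleolar RNA host, 1 microRNA host, and 2.55% of the windows with 7 to 10 CpG overlapped. Counting a region by any base gave 8.48% of autosomal regions, 73.7% lncRNA, 22.9% pseudogene and 0.783% small RNA, 107 tags, 14.6 per Mb and 33.9% at a gene end. Leaving out 5 kb around coding genes gave 6.74% and 12.4 per Mb. Ends of 500 bp and 2 kb held 17.7% and 34.6% of the members. The limits drop regions by construction; other causes were not tested. The density of pseudogenes over lncRNAs, 1.53 times, was 1.59 at 1e-20 and 1.65 at an FDR of at most 5%. The lncRNA fold, this ratio and the CpG share were recomputed by a choice made after seeing the data. Precision is limited by 1 library per genotype and by regions of as few as 11 tags.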

Other observations

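The sex chromosomes lay outside the rule. By the same placing, X held 94 regions in noncoding genes (11% of its 854 regions), 11.8 per Mb (9.51 to 14.4), of which 67 were in pseudogenes and 24 in lncRNAs, the opposite order to the autosomes. Their median fold was 12.48 and 54 (57.4%) had an FDR of at most 5%. Y held 11 of 332 regions (3.31%) in noncoding genes, 11.4 per Mb (5.68 to 20.4), with a median fold of 18.29 and a median of 61 tags.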
